A study of Mus musculus with 12 samples.

Results

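The genes described here encode keratins, desmosomal proteins and proteins of the cornified envelope. They were taken from the annotation alone, as the protein-coding genes whose symbols begin with Krt and a digit, Lce, Sprr, Dsg, Dsc or Pkp, together with Dsp and Ivl. The rule found 104 of the 55487 genes in the count table, and 103 of them passed the filter on low counts. The 1 gene that did not pass was Sprr2a1, with 4 reads in the room air lung M1 and 1 to 8 in the others.

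RNA-Seq read counts came from whole lungs of 12 miR-30a-/- mice on the C57BL/6J background, collected on postnatal day (PND) 21. Every animal carried the global CRISPR deletion of the miR-30a gene, the controls included. By design the groups thus differ only in sex and exposure, and no wild-type library was analysed here. Pups breathed 95% oxygen from PND 1 to PND 5 and then room air (hyperoxia), or room air throughout, with 3 males and 3 females in each exposure. Pups of several litters had been pooled and redistributed between exposures, and the lung vessels were flushed with saline before collection. Mir30a itself had 0 reads in all 12 libraries, which allows up to 3 reads in each. Its annotated precursor is 71 bases long and no library with the gene intact stood beside them, so this count is a weak check of the genotype. Libraries are named by group and animal number, and the room air male M1 and the hyperoxia male M1 are different animals.

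Keratins are the intermediate filaments of epithelial cells and assemble as pairs of a type I and a type II chain. Krt8 with Krt18, and Krt7 and Krt19, are found in simple epithelia such as the lining of alveoli and airways. Krt5 with Krt14, and Krt15, mark basal cells, and Krt4 with Krt13 are made in the upper layers of moist stratified epithelium such as that of the oesophagus. Krt1 with Krt10 belong to the upper epidermis, Krt6a, Krt6b, Krt16 and Krt17 to activated or wounded epithelium, and a large set of keratins to hair. Desmosomes join neighbouring epithelial cells: desmogleins (Dsg) and desmocollins (Dsc) are the cadherins that bridge the gap, and plakophilins (Pkp) and desmoplakin (Dsp) tie them to keratin. Involucrin (Ivl), the small proline-rich proteins (Sprr) and the late cornified envelope proteins (Lce) are cross-linked under the membrane of cells that cornify.

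Each library held between 8763033 and 16741694 counted reads (median 11942546). The female groups did not overlap in depth, with 12497449 to 16741694 reads in room air and 10255870 to 11584337 in hyperoxia. The gene Gm10800 alone took 6.04% to 16.6% of the reads in room air females and 15.5% to 22.4% in hyperoxia females. Female fold changes of genes near background carry this limit. Levels are given in CPM, the count of a gene divided by its library's upper-quartile effective size. Reads also fell at a low density on genes that lung does not use. This background was set by the median density, in reads per kilobase of exon, of 1490 olfactory and vomeronasal receptor genes, and a gene's background multiple is its count over what that density gives for its length. The receptor genes took 0.4095% to 0.9452% of the reads of a library. The share was 0.4095% to 0.7391% in room air females, 0.6690% to 0.8474% in hyperoxia females, 0.6422% and 0.7687% in room air males M4 and M5, and 0.5147% to 0.9452% in hyperoxia males. In room air male M1 it was 0.8995%, the second highest of the 12 lungs. Nothing showed that lungs of a group were other than separate animals, and no 2 libraries held identical values.

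In the 11 lungs other than room air M1, 4 of the 5 simple-epithelial keratins, together with Pkp4, Krt80 and Dsp, stood highest over background. Over these 11 lungs the median background multiple was 11.5 for Krt19, 11.5 for Krt7, 9.95 for Krt18 and 8.63 for Krt8. The 25 hair keratins served as a yardstick, since lung is not a hair-forming tissue. Their medians ran from 2.08 to 4.48, and 13 members lay above the highest of them. Besides Krt19, Krt7, Krt18 and Krt8 these were Pkp4 (10.998), a plakophilin-family protein of cell junctions, Dsp (6.35), Krt80 (6.91), Krt14 (5.06), Krt23 (5.01), Sprr4 (4.89), Krt17 (4.63), Krt9 (4.59) and Sprr2e (4.53). The fifth simple keratin, Krt20, was inside the range of the hair keratins at 3.79. Sprr4, Krt9 and Sprr2e, which are not known as lung genes, sat only just above the yardstick.

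On the scale of CPM per kilobase of exon, the median levels in the 11 lungs were 14.4 for Krt19 and 14.1 for Krt7. They were 11.4 for Krt18 and 10.6 for its partner Krt8, and 7.82 for Dsp. The 2 members of that type I and type II pair were thus at like levels. Of the 104 members, 56 were above 2 times background in every one of the 11 lungs (42.5% of all genes with an exon length), 18 of the 25 hair keratins among them, so passing that level does not show use in lung. Of the members, 22 had a median multiple under 2 and 8 under 1.5. All 9 desmosomal cadherins had low multiples, from 1.32 for Dsg1a to 2.26 for Dsg4, with 1.89 for Dsg2, the desmoglein of simple epithelia. The Sprr2a1, Sprr2a2 and Sprr2a3 models overlap or nearly repeat each other, as do Lce1a1 and Lce1a2, Krt6a and Krt6b, Dsg1a, Dsg1b and Dsg1c, and Krt81 and Krt86. Counts of these genes may be split between copies and are uncertain.

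The room air male M1 stood apart from the other 11 lungs in this gene set. It was known from earlier results of these data to do so. Its values are therefore given as a description with no test, and as 1 library they have no replicate. In M1 the members summed to 2593 CPM, and in the other 11 lungs to between 985 and 1059 CPM. In M1 9 members reached at least 4 times the highest of the other 11 lungs, where 36 of all 45828 genes did (0.0786%). At 2 times the highest there were 21 members (0.240% of all genes). M1 was the highest of the 12 lungs in CPM for 46 of 103 members (12.1% of all genes). In background multiples, which set each library against its own receptor genes, it was the highest for 28 (1.79% of all genes). That scale was added after the data were seen.

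Krt4 and Krt13, the keratin pair of moist stratified epithelium, carried most of this difference. Krt4 had 6551 reads in M1 and 92 to 140 in the other 11 lungs. In CPM that was 543 in M1, 8.85 and 11.2 in room air males M4 and M5, 7.16, 8.76 and 9.86 in room air females, 6.78, 11.5 and 8.62 in hyperoxia males, and 8.90, 9.25 and 10.3 in hyperoxia females. The other 11 lungs overlapped across groups, and M1 was 47.1 times the highest of them. Krt13 had 5437 reads in M1 and 94 to 127 elsewhere. Its level was 450 CPM in M1 and 6.22 to 11.5 CPM in the other lungs, which put M1 at 39.1 times the highest. With background removed and per kilobase of exon, Krt4 stood at 1.03 times Krt13 in M1, so the type II and type I chains were at near-equal levels.

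Among the envelope genes Sprr3 differed most. It had 2009 reads in M1 and 21 to 44 in the other 11 lungs, or 166 CPM against 1.55 to 3.25 CPM. In those 11 lungs its median background multiple was 1.75, below that of every hair keratin. M1 exceeded the highest other lung 51.2 times. Krt4, Krt13 and Sprr3 together made up 71.9% of the 1585 CPM by which M1 exceeded the medians of the other lungs, summed over members. Sprr1a, another cross-linked envelope precursor, had 380 reads in M1 and 25 to 57 elsewhere, 7.25 times the highest. Of 15 Sprr and Ivl genes tested, 6 were highest in M1 in CPM. Besides Sprr3 and Sprr1a these were Sprr2a3, with 91 reads in M1 and 29 to 58 elsewhere (1.60 times the highest in CPM), and Sprr2f, Sprr2i and Sprr2j-ps, at 1.07 to 1.10 times. Sprr1b had 41 reads in M1 and 12 to 43 elsewhere, Sprr4 had 15 and 6 to 20, and Ivl had 65 and 29 to 84. The 8 Sprr2 genes other than Sprr2a1 to Sprr2a3 stood at 0.53 to 2.11 times their medians.

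**Figure D1:**
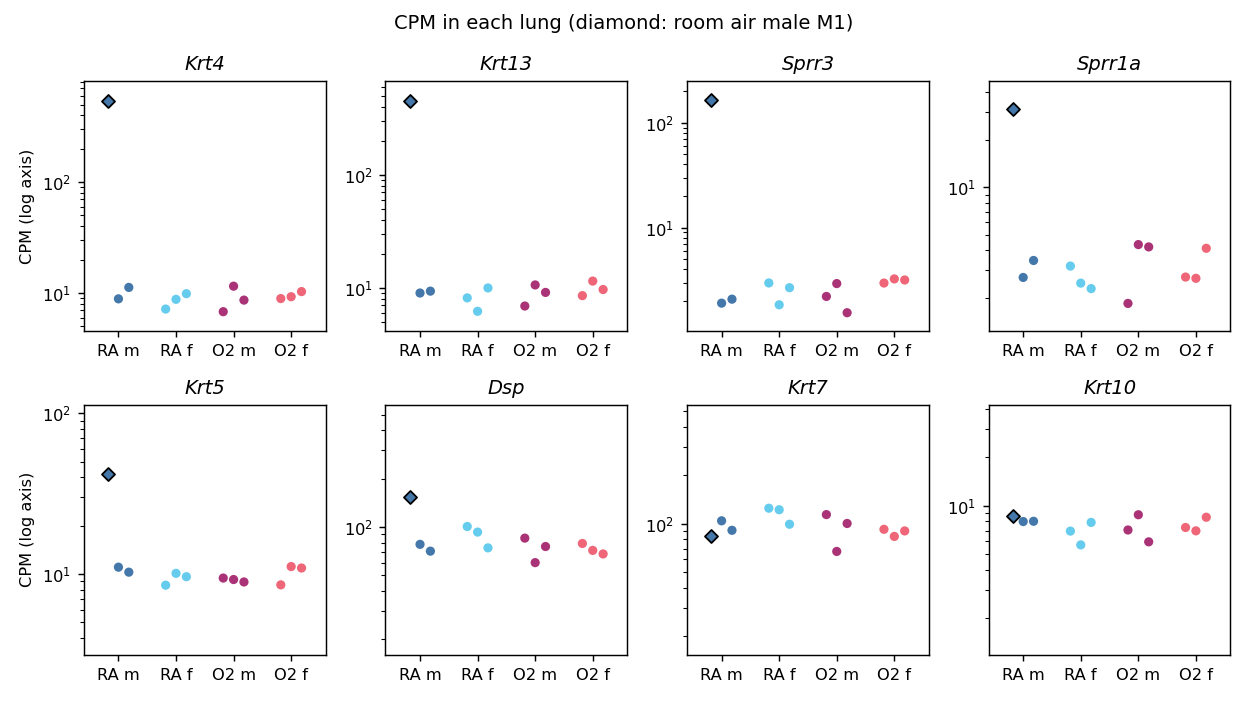
Each panel plots the CPM of 1 gene (log axis) in each of the 12 lungs, in columns for room air males (RA m), room air females (RA f), hyperoxia males (O2 m) and hyperoxia females (O2 f); the diamond is room air male M1. M1 lies far above the other lungs for Krt4 (543 CPM), Krt13 (450 CPM), Sprr3 (166 CPM) and Sprr1a, less so for Krt5 (41.6 CPM) and Dsp (154 CPM), and among or below them for Krt7 and Krt10.

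The 5 remaining genes past 4 times were all Lce3 genes. Lce3b had 255 reads in M1 and 15 to 35 elsewhere (8.84 times the highest). Lce3a had 145 and 6 to 23, Lce3c 174 and 10 to 31, Lce3e 120 and 10 to 26, and Lce3f 132 and 3 to 22. These lie side by side between Lce3a and Lce3f on chromosome 3 (GRCm38), at chr3:92925287-92993426. Lce3d lies inside that stretch and had 22 reads in M1 and 6 to 29 elsewhere. Of 21 Lce genes, 17 were highest in M1 in CPM. The Lce1 genes differed by less: Lce1a1 stood at 5.50 times its median, Lce1c at 4.50, Lce1d at 4.05 and Lce1m at 1.26. Lce1c, Lce1d, Lce1m and the Sprr and Lce3d genes outside the fixed name list were chosen for mention after their values were seen. The Sprr and Ivl genes (92215799 to 92573735) and the Lce genes (92620081 to 93019060) share this cluster of chromosome 3, and the raised genes were not spread along it evenly.

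**Figure D2:**
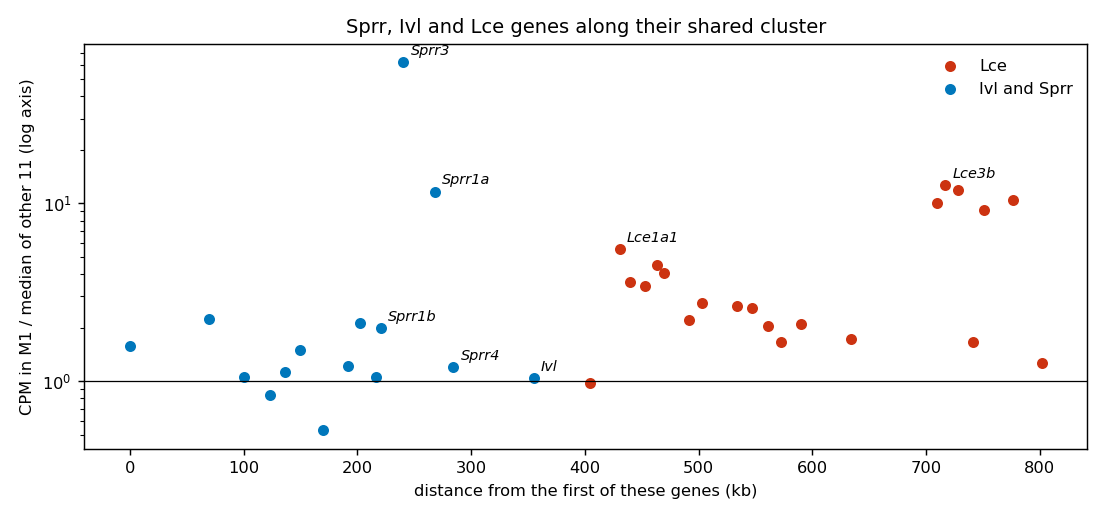
The horizontal axis is distance in kilobases from the first Sprr gene of the chromosome 3 cluster and the vertical axis the CPM in room air male M1 over the median of the other 11 lungs (log axis), 1 point per gene that passed the filter. Sprr3 at 62.1 and Sprr1a at 11.6 stand above the other Sprr genes and Ivl, and 5 of the 6 Lce3 genes at 9.19 to 12.6 form a separate group at the right.

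The windows before the starts of 4 raised genes, and that of Krt7 as a simple keratin that was not raised, are shown so that these promoters can be set side by side. RefSeq on GRCm38.p6 gave a window for 73 of the 104 members. Each sequence is the 250 bases before the annotated start, on the gene's strand, 5′ to 3′. Capitals mark the motifs TATAAA and TGANTCA, searched on both strands. TGANTCA, the core bound by AP-1 factors, reads the same on both strands, and the motifs do not overlap each other. The windows are Krt13 chr11:100121567-100121816 (minus strand), Sprr3 chr3:92458721-92458970 (minus), Sprr1a chr3:92485882-92486131 (minus), Lce3b chr3:92932729-92932978 (plus) and Krt7 chr15:101412153-101412402 (plus).
Krt13: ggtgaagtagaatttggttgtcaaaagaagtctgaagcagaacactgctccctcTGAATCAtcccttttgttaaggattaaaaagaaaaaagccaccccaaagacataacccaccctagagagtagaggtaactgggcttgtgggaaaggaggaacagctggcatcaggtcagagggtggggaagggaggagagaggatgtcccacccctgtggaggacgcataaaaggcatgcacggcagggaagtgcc
Sprr3: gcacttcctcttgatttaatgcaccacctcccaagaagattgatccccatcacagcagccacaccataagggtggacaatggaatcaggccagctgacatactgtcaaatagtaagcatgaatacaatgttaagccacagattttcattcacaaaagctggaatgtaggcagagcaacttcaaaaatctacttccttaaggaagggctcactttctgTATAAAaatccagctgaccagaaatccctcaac
Sprr1a: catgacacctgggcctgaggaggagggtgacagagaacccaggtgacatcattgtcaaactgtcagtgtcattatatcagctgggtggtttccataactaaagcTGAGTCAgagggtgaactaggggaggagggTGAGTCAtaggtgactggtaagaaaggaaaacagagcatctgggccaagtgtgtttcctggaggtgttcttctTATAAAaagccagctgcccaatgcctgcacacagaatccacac
Lce3b: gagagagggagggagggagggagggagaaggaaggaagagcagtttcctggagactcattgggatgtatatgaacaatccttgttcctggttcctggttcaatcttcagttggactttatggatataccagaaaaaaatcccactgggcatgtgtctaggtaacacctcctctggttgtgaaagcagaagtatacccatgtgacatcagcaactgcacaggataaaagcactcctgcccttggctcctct
Krt7: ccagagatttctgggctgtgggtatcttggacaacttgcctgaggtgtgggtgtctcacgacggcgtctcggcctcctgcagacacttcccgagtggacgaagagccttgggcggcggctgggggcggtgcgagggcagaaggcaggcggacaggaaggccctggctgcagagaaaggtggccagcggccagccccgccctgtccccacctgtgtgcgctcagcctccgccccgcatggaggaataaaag
Sprr1a held TGANTCA at -146 and -116 and TATAAA at -43, counted from the start. Sprr3 held TATAAA alone at -33 and Krt13 held TGANTCA alone at -196. Neither motif was in the Lce3b or Krt7 window. Among the members with a window, 10 of 15 Sprr and Ivl genes held TGANTCA, 0 of 20 Lce genes and 0 of 19 hair keratins, and 6.87% of all 27025 genes in the table. TATAAA was in 11 of the 15 Sprr and Ivl genes, 13 of 19 hair keratins, 4 of 20 Lce genes and 13% of all genes. Of the 8 genes past 4 times in M1 that had a window, 3 held TATAAA and 2 held TGANTCA. The 65 other members held them in 29 and 9 windows.

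Basal and desmosomal genes were raised in M1 by less. Krt5 had 502 reads in M1 and 85 to 159 elsewhere, 41.6 CPM against 8.51 to 11.1 CPM, or 3.74 times the highest. Its partner Krt14 had 192 reads and 91 to 156 elsewhere, 1.22 times the highest in CPM, and Krt15 had 280 and 79 to 126. In background multiples Krt14 was not highest in M1, at 5.74 against 7.78 in room air female F5. With background removed and per kilobase, Krt5 stood at 2.32 times Krt14 in M1. Only the receptor density was removed, and the hair keratins lay above it too, at medians of 2.08 to 4.48 times. The ratio is therefore uncertain. Trp63, the basal cell transcription factor, had 345 reads in M1 and 177 to 267 elsewhere, 1.28 times the highest.

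Of the desmosomal cadherins, Dsc2 was raised most, with 541 reads in M1 and 76 to 138 elsewhere (3.79 times the highest). Dsg3 had 548 and 127 to 235, Dsg1a 331 and 82 to 150, and Dsc3 213 and 85 to 166. Dsg2 had 265 reads in M1, within the 182 to 298 of the others. Of the plaque proteins, Pkp1, the plakophilin of stratified epithelium, had 616 reads in M1 and 170 to 249 elsewhere, and Dsp had 1853 and 552 to 1489. Pkp2, Pkp3 and Pkp4 stood at 0.85, 1.24 and 0.85 times their medians. In CPM M1 was the highest lung for 6 of 9 cadherins and 3 of 5 plaque proteins. In background multiples the same 6 cadherins and Pkp1 were highest in M1, but Dsp and Pkp3 were not. Dsp was 10.1 in M1 and 13.3 in room air female F5, and Pkp3 was 4.13 in M1 and 7.49 in hyperoxia male M1.

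None of the simple, upper epidermal and hair keratins reached 2 times the highest other lung in M1. The 5 simple keratins were at 0.79 to 1.10 times their medians, with M1 highest for none. Krt7 was 83.4 CPM in M1 and 67.1 to 125 CPM in the others, and Krt8 was 16.4 CPM, under the 17.2 to 30.8 CPM of all other lungs. The keratins of the upper epidermis were at 0.76 to 1.19 times, with 105 reads of Krt10 in M1 and 71 to 103 elsewhere. In CPM M1 was the highest lung for none of these 5 genes. Krt78, an internal stratified keratin like Krt4, had 236 reads in M1 and 153 to 232 elsewhere, and at 19.55 CPM against at most 18.3 CPM it was highest in M1. Krt6a and Krt17 of the activation keratins stood at 1.32 and 0.92 times, and the 25 hair keratins at 0.86 to 1.44 times. M1 was the highest lung in CPM for 4 of the 25 hair keratins, 3 of 7 other keratins and 1 of 4 activation keratins.

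**Figure D3:**
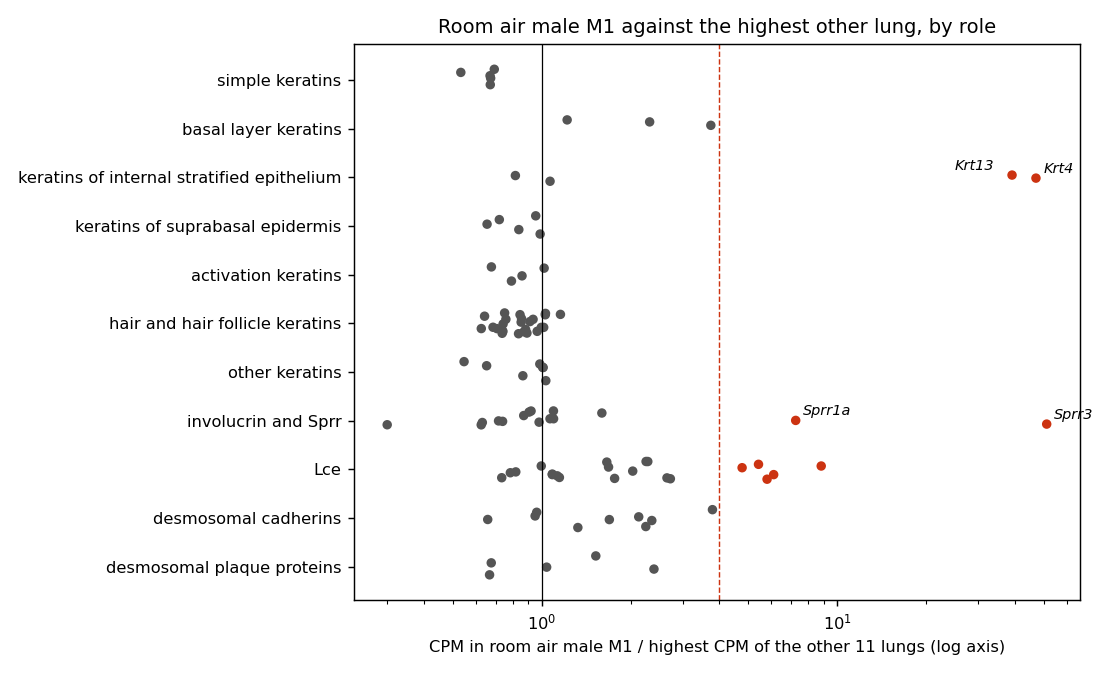
Each point is 1 of the 103 genes that passed the filter, with the CPM in room air male M1 over the highest CPM of the other 11 lungs on the horizontal log axis and the genes' roles on the vertical axis; the solid line is at 1 and the dashed line at 4. Red points mark the 9 genes at or past 4: Krt4, Krt13, Sprr1a, Sprr3 and 5 Lce genes, while all simple keratins lie left of 1.

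Other genes that moved with these in M1 were counted on lists of envelope partners and of cell types that a lung sample could hold. Of 29 other cornified envelope genes, 6 passed 4 times the highest other lung: Rptn (11.8 times), Lor (6.95), Tgm3, a transglutaminase (6.14), Krtdap (6.03), Cnfn (4.79) and Crct1 (4.73). Of 7 junction partners none did, with Perp, a desmosomal membrane protein, at 3.03 times the highest and Jup (plakoglobin) at 0.57. Of 16 skeletal muscle genes 9 did, led by Acta1 at 97.5 times (8783 reads in M1 and 59 to 88 elsewhere), with Neb at 6.05. The skeletal muscle list summed to 2950 CPM in M1 and to 281 to 424 CPM elsewhere. Of the lists of basal cell (10 genes), tracheal cartilage (11), thymus (9), thyroid and parathyroid (5), large-airway secretory (8), club (3), ciliated (6), alveolar type 1 (5) and alveolar type 2 cells (6), none had a gene past 4 times. M1 was a lung library by its alveolar markers: the type 2 list summed to 4229 CPM in M1 and 3872 to 9927 CPM elsewhere, and Sftpc, the surfactant protein gene of type 2 cells, had 26980 reads. The part of muscle or other attached tissue in the keratin values was not tested. In whole lung, more cells of a type and more RNA per cell cannot be told apart. No other library had a member past 4 times. The room air female F6 had 16 other genes past it.

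Exposure was compared in the 11 lungs without room air M1, which left 2 room air males. No member passed the test (edgeR quasi-likelihood, adjusted p under 0.05 over all 46682 genes and at least 1.5-fold) in any of the 5 comparisons. With hyperoxia averaged over the sexes 26 of all genes passed (0.0557%). In females 8 passed (0.0171%), and in males and for the interaction of sex and hyperoxia none passed. Females against males averaged over exposures gave 554 genes (1.19%) and no member. The smallest adjusted p of a member was 0.706, 0.342, 1.00, 0.857 and 0.710 in that order. At an unadjusted p under 0.05, hyperoxia averaged over the sexes gave 3 members (6.16% of all genes), females 15 (12.2%), males 0 (1.86%), the interaction 10 (4.50%) and sex 1 (5.52%). These counts depended on single lungs. The 3 members averaged over the sexes became 11 without room air F6, 9 without hyperoxia M1, 7 without room air M5 and 5 without hyperoxia F2. The 10 of the interaction became 4 without room air M5, room air F5 or hyperoxia M1, 5 without room air F2, hyperoxia M3 or hyperoxia F4, and 6 without hyperoxia F5, and were 15 without hyperoxia M2. In males the 0 became 3 without room air M4 or hyperoxia M2 and 2 without hyperoxia M1 or M3. For sex the 1 became 5 without hyperoxia M1, 4 without room air F6, 3 without hyperoxia M2 and 2 without room air F5 or hyperoxia F5. With receptor share in the fit, 2 members were higher and 2 lower at an unadjusted p under 0.05 in females (1271 and 1348 of all genes). The interaction gave 3 and 2 (1099 and 958), the average over the sexes 1 and 5 (1436 and 1641), males 1 and 3 (1097 and 1443) and sex 6 and 0 (2624 and 1623). DESeq2 also called 0 members in each comparison.

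Of the 5 simple keratins, 4 had log2 fold changes below 0 and 1 above 0 averaged over the sexes, and none passed the test. Krt20, the keratin of intestinal and bladder lining, was the one above 0, at 0.11 (SE 0.17). Krt8 was 26.1 and 20.7 CPM in room air males M4 and M5, and 25.5, 30.8 and 21.1 CPM in room air females. It was 20.04, 19.3 and 18.4 CPM in hyperoxia males and 17.5, 22.8 and 17.2 CPM in hyperoxia females. The males did not overlap and the females did. Its mean was 24.9 ± 4.14 CPM in room air (SD, n = 5) and 19.2 ± 2.06 CPM in hyperoxia (SD, n = 6). The log2 fold change averaged over the sexes was -0.36 (SE 0.12), with an edgeR adjusted p of 0.706. This was the smallest unadjusted p of a member in that comparison (0.00594).

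Krt7 was 104 and 90.9 CPM in room air males and 125, 122 and 99.1 CPM in room air females. It was 114, 67.1 and 100 CPM in hyperoxia males and 92.2, 83.3 and 90.04 CPM in hyperoxia females. The females did not overlap, and the males did. The log2 fold change was -0.38 (SE 0.22) in females, with an edgeR adjusted p of 0.446. Pkp4 likewise separated the females, at 98.1, 96.0 and 76.7 CPM in room air and 75.6, 61.0 and 67.7 CPM in hyperoxia. Its log2 fold change there was -0.41 (SE 0.21, edgeR adjusted p 0.419). Krt7 and Pkp4 were the only 2 members lower without overlap in females (6.36% of all genes), but Krt8 and Krt19 had the smaller p-values there. Krt8 was -0.43 (SE 0.16, edgeR adjusted p 0.361, unadjusted p 0.0111) in females and -0.28 (SE 0.18) in males. With a lung left out it ranged from -0.57 to -0.29 in females and from -0.45 to -0.09 in males. Krt19 was 36.8, 41.9 and 26.7 CPM in room air females and 29.7, 24.5 and 23.6 CPM in hyperoxia females, which overlapped. Its log2 fold change there was -0.44 (SE 0.18, edgeR adjusted p 0.368, unadjusted p 0.0174), and in males it was -0.06 (SE 0.20). With receptor share in the fit, Krt7, Pkp4, Krt8 and Krt19 were -0.08, -0.10, -0.23 and -0.05 in females. On the genes read mostly above background they were -0.06, -0.08, -0.09 and -0.11. The room air females with the highest Krt7, F2 and F5, also had the lowest receptor shares of their group, at 0.5165% and 0.4095%. Receptor share was partly tied to exposure in females, at 0.4095% to 0.7391% in room air and 0.6690% to 0.8474% in hyperoxia. The parts of the 2 in these fold changes cannot be told apart.

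Averaged over the sexes, Krt7, Krt19, Pkp4 and Dsp gave log2 fold changes of -0.22 (SE 0.16), -0.25 (SE 0.13), -0.19 (SE 0.16) and -0.15 (SE 0.15), and Krt18 gave -0.03 (SE 0.13). None passed the test. With a lung left out, Krt7 ranged from -0.30 to -0.12, Krt19 from -0.33 to -0.17, Pkp4 from -0.28 to -0.11 and Dsp from -0.21 to -0.09. When only the 10666 genes whose reads were mostly above background were normalised and tested, 9 members remained and their median log2 fold change was -0.02. There Krt7, Krt8, Krt19 and Pkp4 gave -0.05 (SE 0.06), -0.17 (SE 0.12), -0.08 (SE 0.08) and -0.02 (SE 0.05). Of the 9 members 3 changed direction: Dsp to 0.02 (SE 0.06), Krt18 to 0.14 (SE 0.10) and Krt23 from -0.08 (SE 0.14) to 0.10 (SE 0.14). Krt18 and Krt23 were also above 0 with receptor share in the fit, at 0.13 (SE 0.10) and 0.02 (SE 0.12).

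Over all 103 members together, log2 fold changes in females were more often above than below 0. The median log2 fold change of the 103 members in females was 0.22, against 0.11 over all genes, and 81 of 103 were above 0 (60.7% of all genes). Single room air females moved these values: the members' median was 0.35 with 87 above 0 without F6 and 0.14 with 71 above 0 without F5. The 15 members at an unadjusted p under 0.05 became 30 without F6 and 5 without F5. Without the room air female F2 or the hyperoxia female F4 they became 9, and without the hyperoxia female F5 they became 8. In females 14 members were higher in hyperoxia without overlap (10.8% of all genes), a count of 14 of 103 that lies near that background. Among them were Dsc1, Krt16, Krt39, Lce1b, Lce1g and Sprr2a3. In males the members' median was -0.05 (0.00 over all genes), with 45 of 103 above 0, and its direction rested on single lungs. It was 0.07 without room air M5 and 0.02 without hyperoxia M1, with 55 above 0 in each case. Without room air M4 it was -0.09 with 37 above 0, and without hyperoxia M2 -0.14 with 29 above 0. There 6 members were higher and 7 lower without overlap (6.20% and 6.74% of all genes). Lce1a2 alone was higher without overlap when both sexes were pooled (0.304%), and no member was lower (0.317%).

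By role, 20 of 21 Lce genes and 9 of 9 desmosomal cadherins had log2 fold changes above 0 in females, with medians of 0.45 and 0.31, while 4 of 5 desmosomal plaque proteins (median -0.27) and 4 of 5 simple keratins (median -0.38) were below 0. In males 10 of 21 Lce genes, 5 of 9 cadherins, 4 of 5 plaque proteins and 2 of 5 simple keratins were above 0. None of these genes passed the test. Lists of tissues that lung does not hold, or holds little of, were above 0 in females too: 9 of 9 thymus genes (median 0.27), 5 of 5 thyroid and parathyroid genes (0.13), 10 of 11 tracheal cartilage genes (0.20) and 13 of 16 skeletal muscle genes (0.19). When receptor share entered the fit as a covariate, the members' median was -0.01 in females and -0.06 in males. Above 0 there were 45 of 103 members in females and 44 in males. Krt16, Lce1b, Sprr2a3 and Lce1a2 are named after their values were seen.

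Dsc1, a desmocollin of the upper epidermis, was 6.08, 4.25 and 7.17 CPM in room air females and 7.86, 9.55 and 10.6 CPM in hyperoxia females. In males it was 8.24 and 8.65 CPM in room air and 4.50, 9.12 and 7.37 CPM in hyperoxia. The log2 fold change in females was 0.68 (SE 0.23, edgeR adjusted p 0.349) and the interaction was 0.97 (SE 0.34, edgeR adjusted p 0.857). Its median background multiple was 1.36, so most of its reads in these lungs were at the level of unused genes. Dsc3 was 7.57, 5.396 and 11.9 CPM in room air females and 12.1, 11.6 and 12.95 CPM in hyperoxia females. The groups overlapped through F6, and the log2 fold change was 0.57 (SE 0.21, edgeR adjusted p 0.361). Without the room air female F6 it was 0.92 and passed, with an edgeR adjusted p of 0.0273 (0.432% of all genes then passed in that direction). Over all lungs left out in turn it ranged from 0.33 to 0.92.

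Krt39 and Krt40, both hair keratins, had the other small p-values in females, with log2 fold changes of 0.83 (SE 0.26) and 0.72 (SE 0.26). Their edgeR adjusted p-values were 0.342 and 0.359. Krt39 was 3.38, 3.17 and 4.18 CPM in room air females and 7.25, 6.59 and 5.23 CPM in hyperoxia females. Averaged over the sexes it was 0.57 (SE 0.20), and Pkp1 was 0.30 (SE 0.12, edgeR adjusted p 0.801). In males the smallest p-values belonged to Lce1c at 0.87 (SE 0.46), Lce3e at -0.83 (SE 0.45) and Krt86 at -0.48 (SE 0.26), each with an edgeR adjusted p of 1.00. With a lung left out these 3 ranged from 0.66 to 1.14, from -1.19 to -0.61 and from -0.70 to -0.19. Lce1g and Krt40 followed Dsc1 in the interaction, at 1.15 (SE 0.48) and 0.97 (SE 0.39).

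Calls appeared when factors of unwanted variation were estimated from the residuals (RUVr), the approach named in the methods, whose number of factors is not given in the sources used here. With 1 factor 5 members passed in females, all higher (3.31% of all genes): Sprr2a3, Krt39, Krt40, Dsc3 and Dsc1. For the interaction 2 passed, Dsc3 and Dsc1 (0.726%). With 2 factors 5 passed in females (3.51%) and 4 for the interaction (1.05%), which added Krt25 and Krt86. On the adjusted p alone, 16 of 103 members passed in females with 1 factor (17.1% of all genes) and 16 with 2 (18.1%), Krt8 and Krt19 among them in both. Averaged over the sexes 8 passed with 1 factor (7.35%) and 9 with 2 (8.84%).

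**Figure D4:**
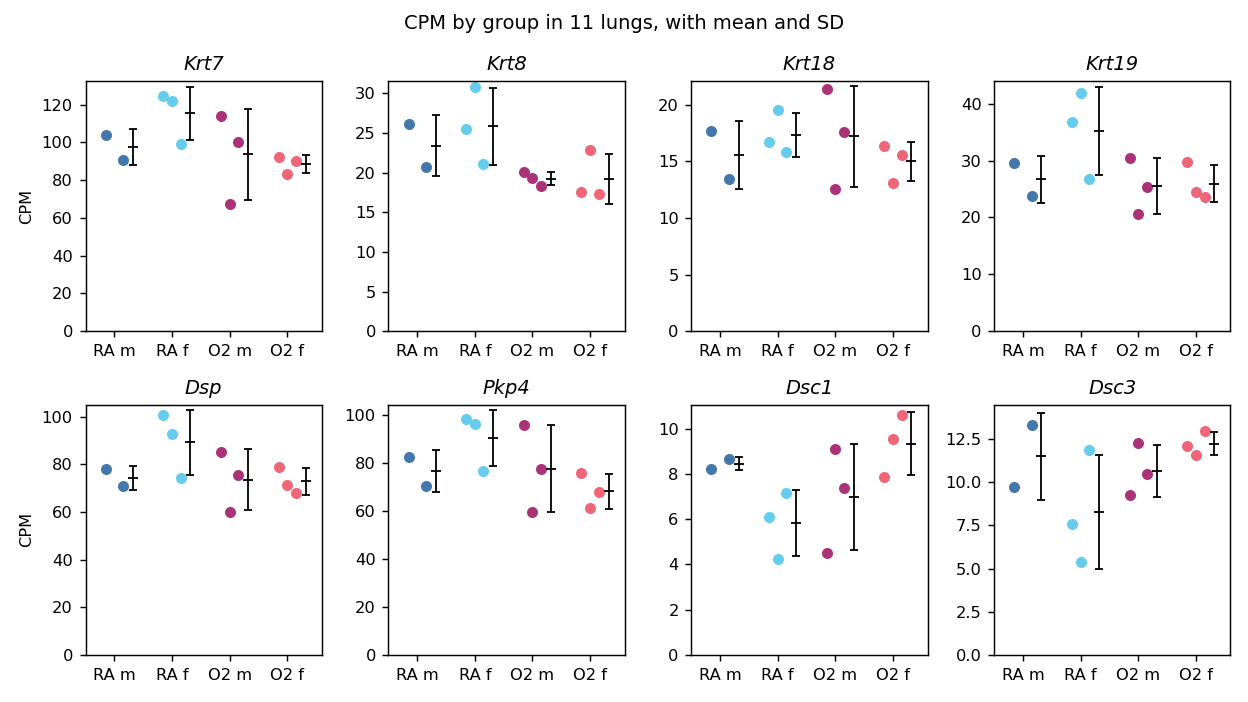
CPM (linear axis from 0) of 8 genes in the 11 lungs without room air male M1, in columns for room air males (RA m, 2 lungs), room air females (RA f), hyperoxia males (O2 m) and hyperoxia females (O2 f); the bar beside the points is the mean with its SD. Krt7 and Pkp4 separate the 2 female groups downward and Dsc1 upward, while Krt18, Krt19, Dsp and Dsc3 overlap in females.

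Leaving room air M1 in lowered several members in males and reversed some of them. Pkp1 went from 0.24 (SE 0.18) without M1 to -0.63 (SE 0.46) with it, and Sprr1a from 0.16 (SE 0.35) to -1.88 (SE 0.91). With all 12 lungs the members' median log2 fold change in males was -0.19, and their range ran from -4.70 to 0.34. Without M1 the range was -0.83 to 0.87. Sprr3 was -4.70 (SE 1.68) with M1 and 0.13 (SE 0.36) without it. Krt4 was -4.40 (SE 1.496) and -0.18 (SE 0.22), and Krt13 was -4.14 (SE 1.45) and -0.06 (SE 0.22). With M1 14 members were lower at an unadjusted p under 0.05 (1.80% of all genes), and none passed the adjusted test. Without M1 that count was 0. The interaction for a member reached 5.03 with M1 and 1.32 without it.

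**Figure D5:**
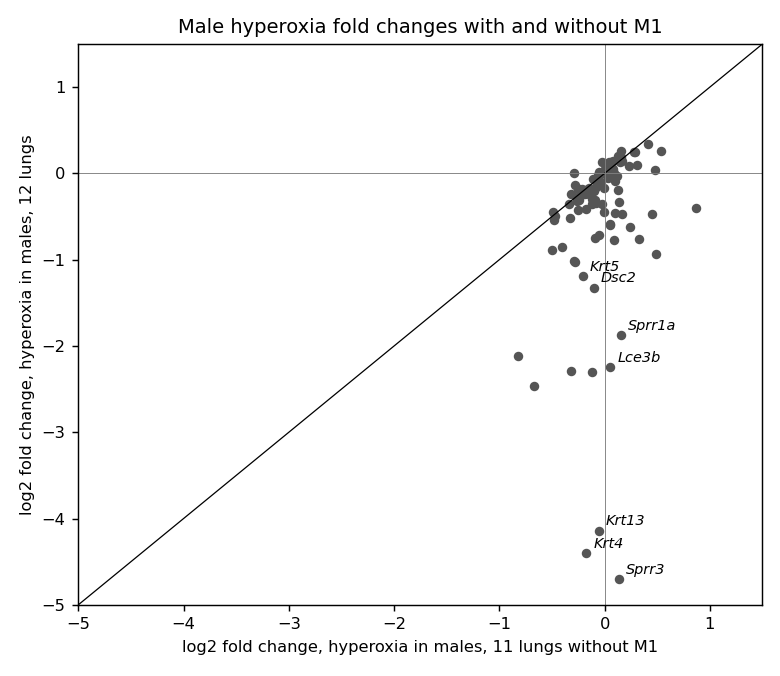
Log2 fold change of hyperoxia against room air in males for each member, from the 11 lungs without room air male M1 (horizontal) and from all 12 lungs (vertical), with the line of equality. Most members lie near the line, while Sprr3, Krt4 and Krt13 fall from near 0 to -4.70, -4.40 and -4.14 when M1 is included.

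Among partner genes in the 11 lungs, 0 of 29 other cornified envelope genes and 0 of 7 junction partners passed in any exposure comparison. In females the median log2 fold changes were 0.15 for the envelope genes and -0.38 for the junction partners. In males they were 0.01 and -0.06. The alveolar type 1 list, 5 genes of the cells that line most of the alveolar surface, had a median of -0.46 in females and -0.18 in males, and the alveolar type 2 list -0.54 and 0.02. Of the airway lists, club cells had -0.58 and -0.22, large-airway secretory cells -0.37 and 0.09, and ciliated cells -0.18 and 0.07. The basal cell list had -0.06 and 0.05. The simple keratins had medians of -0.38 in females and -0.05 in males, and the part of any of these cell types in the keratin values was not tested.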

How the data were processed

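The authors sequenced whole-lung total RNA after ribosomal RNA removal (the labels name the NEBNext Ultra II Directional kit and the methods a QIAseq stranded kit), trimmed reads with Trim Galore, aligned them to mm10 with STAR and deposited raw featureCounts counts per gene for 12 lungs. Tool versions and annotation are not given in the sources used here. All 104 members matched GENCODE M21, which gave exon lengths.

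Genes were filtered with filterByExpr, scaled by upper-quartile factors and fitted with edgeR 4.0.16 (robust quasi-likelihood) over 4 sex and exposure groups, without room air male M1 (46682 genes). Genes were called at 1.5-fold or more with p under 0.05 after Benjamini-Hochberg adjustment. The room air M1 comparison used 12 lungs (45828 genes) and no test. Alternatives were TMM, DESeq2 1.42.0, other filters, a receptor-share covariate, background subtraction, RUVr, each lung left out and all 12 lungs. The test was run on simulated counts with large changes placed in genes of higher count. That check does not cover small changes or members near background.

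The members, gene lists and tests were chosen with earlier results of these data known. Named genes were a fixed list of well-known members, the 10 largest ratios in M1, the 3 smallest p-values in each exposure comparison, and Trp63, Neb, Acta1, Lor, Jup and Perp. P-values measure the spread between lungs. Libraries held 8763033 to 16741694 reads, which limits the precision of genes near background.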

Additional observations from a re-analysis of the deposited data

How the results depend on the processing

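The count of 9 members past 4 times in room air M1 was 9 under TMM, DESeq2 size factors, raw library sizes, no filter and normalisation on genes read mostly above background (an alternative chosen after seeing the data), and 12 after background subtraction. It was 21 at 2 times and 4 at 8 times, and 9 to 10 with each other lung left out. For exposure, 0 members passed, and the count became 5 in females with RUVr on 1 factor and 5 on 2 factors, and 2 and 4 for the interaction. Leaving out a lung gave 0 to 1 in females, the 1 being Dsc3 without room air female F6. Under every other alternative run, including all 12 lungs, the receptor covariate, background subtraction, 10 counts in every library, adjusted p alone without RUVr and the tests restricted to genes well above background (chosen after seeing the data), 0 members passed in all comparisons. Of 29 printed fold changes 7 reversed under an alternative other than leaving a lung out. Krt18 averaged over the sexes became 0.01 with 10 counts in every library, 0.13 with the receptor covariate, 0.05 with background subtracted and 0.14 on well-counted genes, and ranged from -0.13 to 0.08 with a lung left out. Dsp became 0.02 on well-counted genes, and Krt23 0.02 with the receptor covariate and 0.10 on well-counted genes. Krt20 averaged over the sexes became -0.10 with the receptor covariate and ranged from -0.05 to 0.20 with a lung left out. With M1 included, Pkp1 averaged over the sexes became -0.13 and Lce1c and Sprr3 in males -0.40 and -4.70. With a lung left out, Krt13, Krt19 and Sprr3 in males ranged from -0.19 to 0.10, from -0.21 to 0.12 and from -0.08 to 0.34. Krt4 in males did not reverse but ranged from -0.37 to -0.00. The causes were not tested. Animal numbers 2 and 5 occur in both female groups, and nothing in the labels ties them to a litter or batch. Over genes, the same-numbered lungs' deviations from their group means correlated at 0.05 and -0.15. With that replicate block 0 members passed for hyperoxia averaged over the sexes, in females and for the interaction, and 1 gene of all was higher and 10 lower in females, against 0 and 8 without it. No paired analysis was possible for males because their groups share no more than the number of the excluded M1. Depth limits the members near background, most of the envelope genes among them.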
